A study of Mus musculus with 74 samples.

Results

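The KRAB zinc finger protein (KRAB-ZFP) Gm13154 was mapped by ChIP-seq in F9 EC cells, a mouse embryonal carcinoma line. All rows of the deposited peak table that carried its name were taken, which gave 1561 peaks of the 53255 in the whole table. They were set against 19167 peaks of the 17 other KRAB-ZFPs that were assayed in F9 EC cells with the same N-3XFLAG tag and the same FLAG antibody (F1804). Every one of these 18 samples expressed 1 tagged KRAB-ZFP from a stably integrated Sleeping Beauty transposon with a codon-optimised reading frame, and the puromycin-resistant clones of a transfection were pooled. The labels name no further treatment before cross-linking. The proteins were overexpressed, so the peaks describe where a tagged protein was found at forced levels. Each KRAB-ZFP had 1 sample, and its values come without replicate error. The intervals given are 95% Wilson intervals and cover counting error only.

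KRAB-ZFPs are a large family of vertebrate DNA-binding repressors. An array of C2H2 zinc fingers reads the DNA, with neighbouring fingers contacting neighbouring base triplets, and the KRAB domain recruits the corepressor KAP1 (Trim28) together with the histone methyltransferase Setdb1. Many members bind transposable elements, among them endogenous retroviruses, whose long terminal repeats carry their promoters. Gm13154 is encoded in a cluster of related KRAB-ZFP genes on mouse chromosome 4, at chr4:146927386-146959307 on the plus strand in build mm9 (NCBIM37).

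The sequence that Gm13154 peaks had in common was derived on the odd-numbered chromosomes and X and counted on the even-numbered ones. The procedure took the 10 bp word most over-represented within 50 bp of the summits of 781 single-copy peaks and refined it to a weight matrix from 619 sites. The resulting binding motif was 14 bp long. A separate derivation from the 606 single-copy peaks of the even-numbered chromosomes gave the same consensus, and no entry of the 2 matrices differed by more than 6.90 percentage points. The motif is shown first with N for positions where no base reached 60%. Below it are the target sites that the study had cloned in front of a reporter for this protein, written in the direction of the motif with the match to the motif in capitals. The capitals make visible that both retroviral sites hold the same core TTGCTGC.
Gm13154 motif: TNNCATTGCTGCNG
ETnERV2-int site: ttcttcccTTTCCTTGCTGCGGcgtaa
RLTR9E site: tattgttcTGCCATTGCTGCCGctgct

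Of the 687 Gm13154 peaks on even-numbered chromosomes, which had no part in the derivation, 582 held the motif within the 200 bp window at a score of at least 9 bits. This was 84.7% (81.8 to 87.2%). In the flanking windows 450 to 650 bp downstream of the same summits the share was 3.93% (2.71 to 5.66%), and 450 to 650 bp upstream it was 2.77% (1.78 to 4.28%). Of 25572 genome windows taken every 100 kb, 3.997% (3.76 to 4.24%) held it. The peaks of the 17 other FLAG-tagged KRAB-ZFPs lay between 0 of 52 windows for Zfp534, with an upper bound of 6.88%, and 12.05% (6.68 to 20.8%) of 83 windows for 2610305D13Rik. Gm13152 followed with 9.13% (8.38 to 9.95%) of 5189 windows and Zfp46 with 8.0% (5.43 to 11.6%) of 300. No interval of another KRAB-ZFP reached that of Gm13154.

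**Figure D1:**
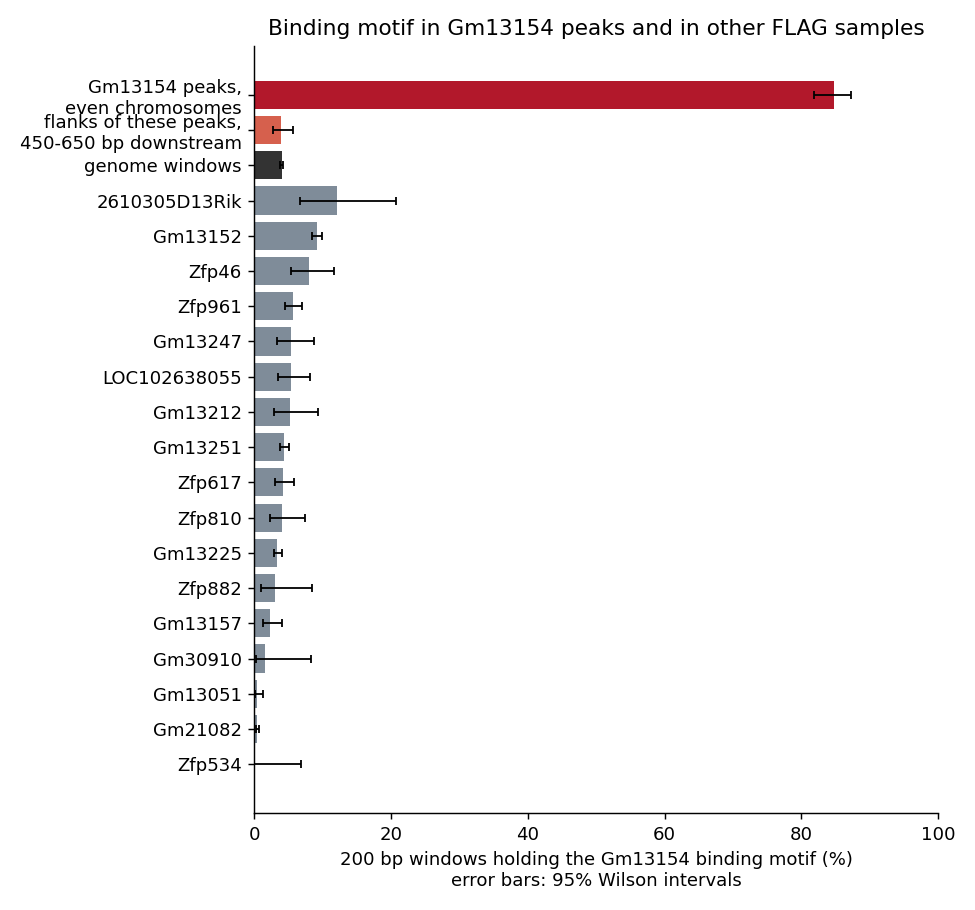
The bars show the share of 200 bp windows holding the Gm13154 binding motif, in percent, with 95% Wilson intervals, for Gm13154 peaks on even-numbered chromosomes, their downstream flanks, genome windows and the peaks of each other FLAG sample. Gm13154 stands at 84.7% and the other KRAB-ZFPs lie between 0 and 12.05%.

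The motif lay at the summits. In the 1320 of all 1561 peaks that held it, the distance between the motif centre and the summit had a median of 14 bp and quartiles of 6 and 27 bp. It was at most 20 bp in 874 peaks (66.2%) and at most 50 bp in 1216 (92.1%). Read on the reference strand, 678 motifs pointed forward and 642 backward. The orientation against the gene was balanced as well. Of 537 intronic motifs 280 had the direction of the gene, as did 34 of 67 in coding exons and 25 of 51 in UTRs.

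**Figure D2:**
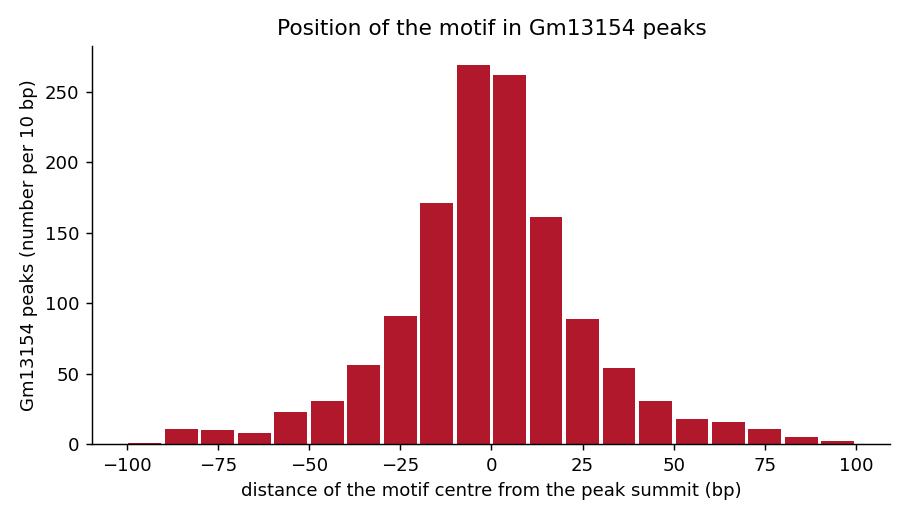
The histogram shows the distance in bp from the peak summit to the centre of the strongest motif for the 1320 Gm13154 peaks that hold one, in bins of 10 bp. The counts are highest in the bins beside the summit and fall off on both sides, with 92.1% of motifs within 50 bp.

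The word CATTGCTGC, which covers positions 4 to 12 of the motif, was counted with each of its single changes. It occurred 23935 times in the genome on either strand and 514 times within 50 bp of a Gm13154 summit, or 21.5 per 1000 genome copies. This was 352 times the rate that an even spread over the genome would give. Positions are counted from 1 at the first C of this word. The exchange A2C kept 215 copies near summits (7.51 per 1000), T3C kept 166 (4.35 per 1000) and T4C kept 17 of only 4544 genome copies (3.74 per 1000). At the last base C9T had 2 copies near summits among 77601 in the genome, C9A had 1 of 34492 and C9G 0 of 42344. G8A had 2 of 21714. Apart from A2C, T3C and T4C no single change exceeded 1.78 per 1000, the value of T7C with 3 of 1684 copies. The changes of the first base lay between 0.273 per 1000 for C1G and 1.38 for C1T, and A2G, A2T, T3G, T4A and T4G between 0.183 and 0.449. These counts come from the same peaks as the motif and are a description of it.

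Most copies of the motif in the genome had no peak. At a score of at least 9 bits there were 597962 sites outside the Y chromosome, and 1664 of them (0.278%) lay wholly inside a 200 bp Gm13154 window. The share rose with the score, from 0.0773% (0.0667 to 0.0895%) of sites between 9 and 10 bits to 2.10% (1.86 to 2.36%) between 16 and 17 bits. It reached 21.2% (17.7 to 25.1%) between 20 and 21 bits and 33.3% (26.6 to 40.8%) of the 165 sites at 21 bits or more. Sites within 1 kb of a transcript start were more often inside a peak. At 15 bits or more 95 of 1913 such sites (4.97%) were in a peak, against 936 of 38275 sites farther away (2.45%). The matrix was derived from these peaks, so the rise is a description. Chromatin accessibility was not measured in these files.

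**Figure D3:**
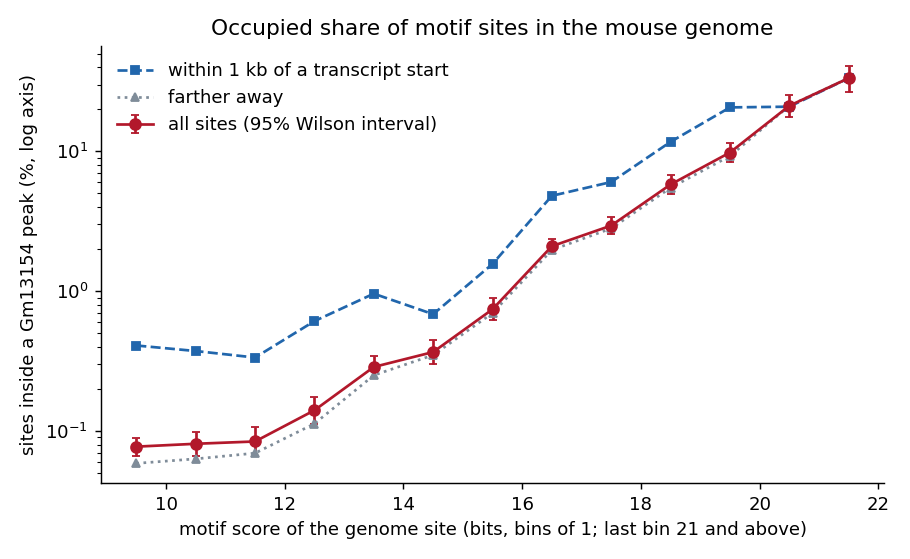
The percentage of genome motif sites lying inside a Gm13154 peak (log axis) is plotted against the motif score of the site in bits, for all sites with 95% Wilson intervals and separately for sites within 1 kb of a transcript start and farther away. The share climbs from 0.0773% at 9 bits to 33.3% at 21 bits or more.

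Above the calling threshold the score said little about the height of a peak. The enrichment, which is the deposited fold over the local background, had a Spearman correlation of 0.15 with the motif score over the 1561 peaks, and points share 1 library. Peaks below 9 bits had a median enrichment of 30.1 with quartiles of 23.6 and 40.6. The 290 peaks at 19 bits or more had a median of 37.9 with quartiles of 27.4 and 57.2, so the ranges overlapped widely. It differed as little with the number of motifs. A median of 31.4 in the 1137 peaks with 1 motif stood beside 35.3 in the 139 with 2 and 35.9 in the 44 with 3 or more. Weak motifs were found more often at promoters. Of the 89 peaks whose best motif scored 9 to 11 bits 28.1% lay within 1 kb of a transcript start, against 7.59% of the 290 at 19 bits or more.

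The retroviral target sites formed a natural series of variants. The ETnERV2-int site belongs to the internal part of early transposon (ETn) related endogenous retroviruses, and it is given here on the strand of the cloned oligonucleotide, with the motif match in capitals and positions counted from 1 at its 5′ end.
ETnERV2-int oligonucleotide: ttacgCCGCAGCAAGGAAAgggaagaa
The paper describes its reporter sequences as identified target sites, so an exact copy inside a peak carries little weight of its own. The genome held 4 exact copies, and all 4 lay in Gm13154 peaks. They were chr1:149017792-149017818 with an enrichment of 150, chr7:52051924-52051950 with 175, chr9:123054528-123054554 with 146 and chrX:23644262-23644288 with 79.7. With 1 mismatch there were 20 copies. The 19 that carried G8A were all outside peaks, while the copy with G20A, at chrX:8373311-8373337, lay in a peak with an enrichment of 98.0. G8A falls in the core of the motif and lowered its score from 18.5 to 9.76 bits, whereas G20A falls outside the 14 bp and left the score at 18.5 bits. Of the copies with 2 mismatches 3 were in peaks. They carried G15T with A23G (enrichment 142, motif score 19.9 bits), T2C with C7T (31.4, 20.1 bits) and G15A with A27C (21.2, 13.6 bits), and none of these carried G8A.

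Copy number moved together with this substitution. The 200 bp around the 4 exact copies had a median 24-mer copy number between 1 and 4, and that around the 19 G8A copies had a median of 20, and reads from such repeats were placed at random among their copies by the authors. Over all 91 copies with at most 4 mismatches, 1 of 49 with G8A and 23 of 42 without it were in a peak. Among copies whose surroundings had a copy number of 1 to 2 the numbers were 1 of 8 with G8A and 16 of 21 without. In surroundings with 10 or more copies they were 0 of 34 and 1 of 9. A peak of another FLAG-tagged KRAB-ZFP lay within 5 kb of 6 of the 19 copies with G8A alone, and of 3 of the 4 exact copies. The part of copy number in the difference was not tested further.

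The RLTR9E site comes from a long terminal repeat of that name. Its 1 exact copy, chr14:99438737-99438763, lay in a Gm13154 peak with an enrichment of 80.9. The copy with C26T, at chr14:96232946-96232972, lay in a peak with 74.8. The other 4 copies with 1 mismatch all carried C21T and were outside peaks, although the motif score of this variant was 19.4 bits. Their surroundings had a median copy number of 7.5, against 1 at both copies in peaks. Over all copies with at most 4 mismatches this median was 4 in peaks and 4 outside. Of those with C21T, 1 of 54 was in a peak at a copy number of 1 to 2. The numbers were 6 of 38 above 2 and below 10, and 4 of 47 at 10 or more. T14C together with C21T was the commonest variant with 2 mismatches, and 1 of its 14 copies was in a peak, at chr19:11374212-11374238 with an enrichment of 57.5. Within 4 mismatches 13 of 148 copies were in peaks. Among them, 0 of 42 copies with T9A, which falls on the first T of the motif, and 13 of 106 without it were in a peak. Copies with G10A (0 of 17), C17T (0 of 10) and G5A (0 of 11) were in no peak either, and G5A falls outside the 14 bp. Other changes in the core TTGCTGC were found in peaks. They were T14C (7 of 126), T18C (1 of 47), G19A (2 of 19) and T18A (2 of 6). The part of each substitution was not tested. No peak of the 17 other FLAG-tagged KRAB-ZFPs contained a copy of either site with at most 2 mismatches.

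**Figure D4:**
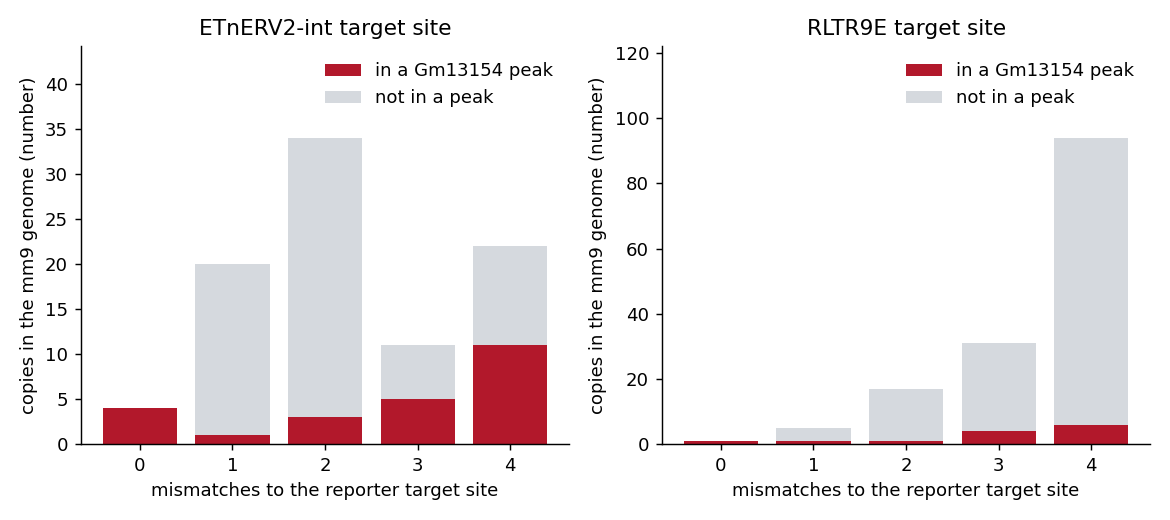
For each reporter target site the stacked bars show the number of copies in the mm9 genome with 0 to 4 mismatches, split into copies inside a Gm13154 peak and copies outside. All 4 exact copies of the ETnERV2-int site and the 1 exact copy of the RLTR9E site lie in peaks. Both sites had been chosen as targets of this protein. Of the 20 ETnERV2-int copies with 1 mismatch 19 do not lie in a peak.

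Peaks with related sequences were grouped without a repeat annotation, so a peak in a diverged repeat, or in a repeat bound at no other copy, counts as standing alone. When 400 bp windows were linked by BLASTN alignments of at least 80% identity over at least 100 bp, 1260 peaks stood alone and 301 peaks (19.3%) fell into 31 families, of which 7 had at least 5 members. The largest family had 161 peaks, 156 of them with the motif, and a median enrichment of 31.4. It contained all 24 peaks with an ETnERV2-int copy and all 13 with an RLTR9E copy, counted with up to 4 mismatches, and no peak had both. At 90% identity its largest subgroup had 100 peaks, of which 98 held the motif, and 72 of these had the identical 14 bp. All 13 peaks with an RLTR9E copy were in this subgroup, and no peak with an ETnERV2-int copy was. The strongest members of this subgroup and of the ETnERV2-int subgroup are shown because their flanks differ while the core is shared.
Subgroup of 100 peaks, strongest member on chromosome 5: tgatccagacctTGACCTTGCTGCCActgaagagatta
ETnERV2-int subgroup of 6 peaks, strongest member on chromosome 1: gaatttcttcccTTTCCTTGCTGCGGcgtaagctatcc
The 7 families included a pair in which the motif was rare, with 2 of 15 and 1 of 6 peaks. The motif share was 85.1% over all peaks within families and 84.4% in peaks that stood alone, and the median enrichment was 31.4 in both. The family share rested largely on the family of 161 peaks. In the second largest, with 44 peaks, 29 (65.9%) held the motif.

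The enrichment of the 1561 peaks ran from 20.0 to 181 with a median of 31.4, and their tags, the reads counted in a peak, from 19 to 557 with a median of 51. The leading sites below are matches to the motif, so the letters GCTGC that recur in them largely follow from that choice. Among those left out is the site of a peak with an enrichment of 163 in an intron of Igfbp7, which scored 11.8 bits. The sites are shown in the direction of the motif with 12 bp on either side.
Trak1: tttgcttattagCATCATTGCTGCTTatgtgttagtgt
Sec61a2: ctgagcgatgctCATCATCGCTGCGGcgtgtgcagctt
near Atf5: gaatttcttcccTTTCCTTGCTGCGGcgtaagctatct
Rpp14: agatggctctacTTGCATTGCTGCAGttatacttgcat
Ankrd46: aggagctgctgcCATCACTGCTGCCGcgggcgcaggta
near Zfp108: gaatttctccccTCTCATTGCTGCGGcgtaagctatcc
near Slc7a12: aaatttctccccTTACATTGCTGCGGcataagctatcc
The highest enrichment, 181 with 446 tags, was in an intron of Trak1, an adaptor for the transport of mitochondria, on chromosome 9. Sec61a2, which encodes a subunit of the endoplasmic reticulum translocon, had a peak of 176 at 138 bp upstream of its start. Rpp14, a ribonuclease P subunit, had one of 172 in a UTR, and Ankrd46 one of 166 at 28 bp inside its start. The peaks near Atf5 (175), Zfp108 (161) and Slc7a12 (160) were members of the family of 161 peaks. The peak with the most tags lay 35987 bp upstream of Ahctf1, held 557 tags at an enrichment of 171 and had 7 motifs in a sequence with a median copy number of 15. The tenth peak, in an intron of Lama3, a laminin chain, had an enrichment of 159 and a best score of 8.47 bits, below the threshold. At the lower end, the 2 smallest enrichments were 20.0 near Ptov1 and 20.1 in an intron of Cyp2s1.

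Gm13154 peaks were distributed over genes as follows. Of 1561 summits 728 (46.6%, 44.2 to 49.1%) were intergenic, 664 (42.5%, 40.1 to 45.0%) intronic, 84 (5.38%, 4.37 to 6.61%) in coding exons and 69 (4.42%, 3.51 to 5.56%) in UTRs. Over all 200 bp windows of the genome the shares were 58.8%, 37.8%, 1.4% and 1.25%. The coding exon share was higher in 3 of the 17 other FLAG samples, whose median was 2.06%. Within 1 kb of a transcript start lay 198 peaks (12.7%, 11.1 to 14.4%), against 4.15% of genome windows. Only 55 peaks (3.52%, 2.72 to 4.56%) lay in multi-copy sequence, defined as a median 24-mer copy number of at least 10, against 12.9% of genome windows taken every 100 kb. In 1387 peaks (88.9%) the median copy number was 1. Exact 24-mers do not count diverged copies, so such a peak can still lie in a repeat. The family of 161 related peaks had a median copy number of 2, and that of 44 peaks a median of 1.

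Among the 18 FLAG samples Gm13154 was inside the range in all 6 values compared. It had the fifth highest number of peaks, and 14 of the other 17 samples had a larger share in multi-copy sequence. The highest multi-copy share was 91.9% for Gm21082 and the highest promoter share 50.05% for Gm13152. The shares of loci called in another FLAG sample were 2.76% for Gm13154 and a median of 6.81% for the others. By an exact two-sided permutation of the label over the 18 samples, the p-values were 0.5 for the number of peaks, 0.667 for the median enrichment, 0.889 for the promoter share, 0.389 for the multi-copy share, 0.944 for the mean GC content (49.1%) and 0.5 for the shared loci. All 6 were 0.944 after Benjamini-Hochberg adjustment. The smallest p this design allows is 0.0556, so none of these comparisons could pass 0.05. Peaks had been called at an enrichment over 20 in 12 of these samples, Gm13154 included, and at lower settings in the rest.

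**Figure D5:**
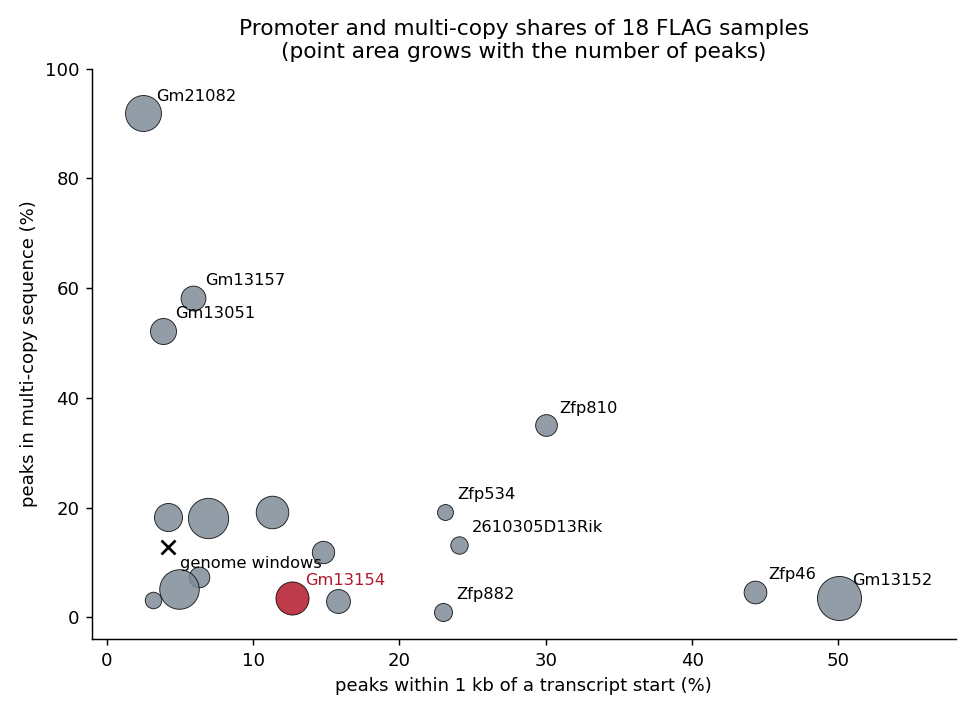
Each point is 1 FLAG-tagged KRAB-ZFP in F9 EC cells, placed by the percentage of its peaks within 1 kb of a transcript start and the percentage in multi-copy sequence, with the cross for genome windows. Gm13154 lies at 12.7% and 3.52%, far from Gm21082 with 91.9% multi-copy peaks and from Gm13152 with 50.05% promoter peaks.

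Promoter peaks had the motif as often as the others. Of the 198 peaks within 1 kb of a transcript start 82.3% (76.4 to 87.0%) held it, and of the other 1363 peaks 84.9% (82.9 to 86.7%). Counting only starts of protein-coding genes, 166 peaks stood at 164 genes, 72 upstream and 94 downstream of the start, with a mean GC content of 58.7% against 47.9% in the other 1395 peaks. Their median enrichment was 31.6, against 31.4. After Sec61a2 and Ankrd46 the highest enrichments were those of Tesk1 (144), a kinase of the actin cytoskeleton, Bahcc1 (118), Acap1 (114), which encodes an Arf6 GTPase-activating protein, and Tsc22d1 (109), a transcriptional regulator. Pstk (106), the kinase of selenocysteine transfer RNA, Ccnh (102), the cyclin of the CDK-activating kinase, and Copb1 (93.6), a subunit of the COPI coat, followed. Peaks also stood at Ubac1 (92.8), Slco2a1 (91.5), a prostaglandin transporter, Mnd1 (88.2), which acts in meiotic recombination, Ihh (82.3), the ligand Indian hedgehog, and Mecom (82.2), a zinc finger transcription factor. The sites in Tesk1 and Slco2a1 departed from the core, with scores of 10.1 and 9.86 bits, and those at Copb1, Ihh and Mecom were close to the consensus.
Tesk1: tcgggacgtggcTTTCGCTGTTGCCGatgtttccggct
Slco2a1: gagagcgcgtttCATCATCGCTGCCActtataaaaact
Copb1: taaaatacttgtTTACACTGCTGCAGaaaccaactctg
Ihh: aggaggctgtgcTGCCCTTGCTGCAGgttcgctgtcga
Mecom: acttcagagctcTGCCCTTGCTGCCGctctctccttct

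The 84 peaks in coding exons were led by Kpna3, which encodes an importin alpha, with an enrichment of 131. Lin37, a subunit of the DREAM complex, followed with 124, and Acap1 and Tsc22d1 were in coding exons as well as near starts. Hn1l had 79.7, Foxp4, a forkhead factor, 77.1, Lpin2, a phosphatidate phosphatase, 75.8, Epha1, an ephrin receptor, 74.5 and Cpne9 72.2. The Foxp4 peak had no motif, with a best score of 4.77 bits. The peak in Cpne9 held the site with the highest possible score of the matrix, 21.8 bits.
Cpne9: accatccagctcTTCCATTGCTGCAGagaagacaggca
Kpna3: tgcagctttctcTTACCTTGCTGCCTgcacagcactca
Lpin2: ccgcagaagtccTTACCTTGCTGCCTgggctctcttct
The identical 14 bp in Kpna3 and Lpin2 ran across the end of an exon, with the motif opposite to the gene, so that the splice donor was read in reverse. Of the 1320 strongest motifs 9 spanned an annotated splice donor (0.682%) and 1 an acceptor (0.0758%). Among genome sites of at least 9 bits the shares were 0.1075% and 0.1505%. Of the 56 genome sites of at least 15 bits that spanned a donor 8 (14.3%) were in a Gm13154 peak, against 1 of the 56 that spanned an acceptor and 2.57% of all sites of that score. These groups were not matched on score, and the share in a peak rose with the score.

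Few Gm13154 loci were called for another KRAB-ZFP. Of the 1561 peaks 1474 (94.4%) overlapped no window of the other 66 KRAB-ZFPs by at least 25%. Of the 87 that did, 71.3% held the motif and 33.3% were within 1 kb of a start, against 85.3% and 11.5% of the rest. The largest count for a KRAB-ZFP was that of Gm13152, with 26 loci, which were 1.67% of the Gm13154 peaks and 0.501% of the Gm13152 peaks. Of these 26, 19 lay within 1 kb of a transcript start, and they included Tesk1, Ubac1, Nap1l3 (79.7) and Ndrg3 (60.8). Next came Gm14401, assayed in ES cells, with 9 loci, all 9 with the Gm13154 motif, and Zfp661 with 8. Gm13051, which is also encoded on chromosome 4, shared 1 locus.

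Peaks of the proteins most like Gm13154 seldom held its motif. Translated from the gencode transcripts, Gm13154 had 519 residues and 10 C2H2 zinc fingers by the pattern used. Sequences were found for 14 of the 17 other FLAG-tagged KRAB-ZFPs. Identity over the whole alignment was highest with Gm13157 at 79.7%, Gm13251 at 74.0% and Gm13225 at 73.4%. Each of these 3 shared the 4 base-contacting residues with Gm13154 in only 2 fingers, and their peaks held the Gm13154 motif in 2.26%, 4.36% and 3.39%, near the 3.997% of genome windows. Gm13212 had 7 of its 20 fingers with contact residues also found in Gm13154, and 5.24% (2.87 to 9.37%) of its peaks held the motif. Its peaks were called at 1e-05 and an enrichment over 10, with medians of 13.2 for enrichment and 10 for tags. Those of Gm13225 were also called at an enrichment over 10, with a median of 11.75. In such weak sets a low motif share cannot show that a protein has other sites.

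Gm13154 peaks were scattered. Only 62 peaks (3.97%) lay within 10 kb of another, in 30 groups of at most 3. The 3 peaks in and at Klhl8 had enrichments of 57.3, 28.7 and 28.2 and each held a motif. The 3 upstream of Tlr2, a receptor of innate immunity, had 50.4, 47.3 and 45.7, and 2 of them, in sequence with copy numbers of 28 and 50, had no motif. The X chromosome carried 2.65 peaks per 10 Mb, the lowest of the chromosomes with a peak, and chromosome 11 the highest with 8.25. As shares of all peaks, X had 2.76% for Gm13154 and 3.64% for the other FLAG samples, and chromosome 11 had 6.28% and 6.37%.

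Of 22225 protein-coding genes 679 (3.06%) had a Gm13154 peak within 10 kb of a transcript start. Among 24 genes of the pluripotency network 2 did. They were Dppa5a, a KH domain protein of pluripotent cells, with an enrichment of 36.4 and no motif (0.149 bits), and Nr5a2, a nuclear receptor, with 32.7 and a motif of 16.7 bits. Among 39 genes of the Hox clusters 3 did, and Hoxd11, Hoxd12 and Hoxd13 shared the same peak in the coding sequence of Hoxd12, which had 22.2 and no motif. None of the 26 annotated genes of the KAP1 silencing machinery, 12 trophoblast regulators, 12 germline genes and 15 annotated chromosome 4 KRAB-ZFPs had one, and Gm13154 had no peak in its own gene. With 50 kb in place of 10 kb 2202 genes (9.91%) had a peak. In the pluripotency network 3 of 24 did, where Nanog was added, and in the silencing machinery 1 of 26, Morc3. In the Hox clusters 8 of 39 did, all of them genes of the Hoxd cluster, so the 8 are not separate cases. These lists are short, and their counts are given as a description beside the share over all genes.

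The 241 peaks without the motif did not stand apart in height. Their median enrichment was 30.1, and 35 (14.5%) lay within 1 kb of a transcript start. They were more often in multi-copy sequence, with 20 of 241 peaks (8.30%) against 3.52% of all peaks. They included the Lama3 peak (159) and a peak near Ugt3a1 with 497 tags and an enrichment of 111, which belonged to the family of 161 peaks. The share of peaks with the motif was 90% among the 200 highest enrichments and 79.5% among the 161 lowest.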

How the data were processed

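ChIP-seq of 1 FLAG-tagged KRAB-ZFP per sample was analysed from 1 deposited peak table. Per the labels and the methods, the authors mapped reads to mm9 with Bowtie (-5 3 --best), placed reads with several equally good positions at random, and called peaks per sample with MACS (1.4.2) against input and a FLAG control ChIP. Gm13154 peaks passed the caller's threshold of 1e-10 and an enrichment over 20. Windows were set to 200 bp around the summit. The authors deposited the tag number of each peak as a raw count, a score (10 times the negative log10 of p), the fold enrichment as a ratio and the false discovery rate as a percent. Total reads per library are not given in the sources used here, so a missing peak does not show absent binding. The tags in Gm13154 peaks summed to 109892.

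The table held 53255 peaks under 68 names, and 1 name that matched no label was not used. Coordinates are in mm9, counted from 1. Genes came from gencode vM1, copy numbers from exact 24-mer counts over NCBIM37, families from BLASTN 2.17.0, and protein alignments from Biopython 1.88. Motif and copy number steps were tested on simulated data. A hit needed at least 9 bits. A shared locus was a window overlap of at least 25%. Target sites were searched with at most 2 mismatches, and up to 4 as an alternative. Zinc fingers were found by the pattern of paired cysteines and histidines, and identity was taken over the global alignment. The 6 set values were compared by exact permutation over 18 samples, and all other shares are descriptions. The members, gene lists and tests were chosen with earlier results of these data known. Named peaks were drawn from the 10 highest enrichments, the 5 with the most tags, the 15 highest near protein-coding starts, the 10 highest in coding exons, the 10 highest called in another FLAG sample, the 3 densest groups, the lowest values, and list genes. Some members of these lists are not named in the text.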

Additional observations from a re-analysis of the deposited data

How the results depend on the processing

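Of the 6 values set against the other FLAG samples, 3 changed direction under another choice of samples. Only the comparison with 47 samples could reach 0.05 by exact permutation (smallest possible p 0.0208), and its lowest unadjusted p was 0.188. Against all 47 other F9 samples aligned with Bowtie, Gm13154 lay 0.289 percentage points above their mean in promoter share, where its difference from the FLAG mean was -3.44, and 1.28 above in GC content. Against the 11 other FLAG samples called at an enrichment over 20 its log10 median enrichment differed by -0.0457. The share of peaks near a start was 28.0% at 5 kb. The multi-copy share was 11.2% with a copy number of at least 2 and 0.192% with at least 100. The motif share was 77.7% in 100 bp, 87.3% in 400 bp, 77.3% with a threshold 2 bits higher and 89.1% with one 2 bits lower, where flanks held 2.04% and 8.44%. It was 84.7% with the motif derived on even-numbered chromosomes and counted on the others, beside 6.75% of flanks. Genes with a peak numbered 2202 at 50 kb. Peaks held 4 ETnERV2-int copies and 1 RLTR9E copy with 0 mismatches, and 24 and 13 with at most 4. Peaks near another Gm13154 peak numbered 32 at 5 kb and 101 at 20 kb. Peaks in a family numbered 206 at 90% identity and 395 with alignments of 50 bp, against 301, and loci shared with other samples made up 4.55% at an overlap of 50% and 6.09% at 1 bp, against 5.57%. The other set values kept their direction. No paired analysis was possible because each KRAB-ZFP had 1 sample. Depth per library is unknown, which limits every statement on a site without a peak.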
